A study of Mus musculus with 64 samples.

Results

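Cultured mouse CD4 T cells that had lost both Roquin genes were set directly against cells that had lost Regnase-1, each after 1 h of restimulation. The comparison takes the 4 libraries labelled DKO at 1 h and the 4 labelled KO at 1 h, which are 8 of the 64 libraries of the study. DKO cells carried floxed Rc3h1 and Rc3h2, the genes of Roquin-1 and Roquin-2, with Cd4-Cre-ERt2, and KO cells carried floxed Zc3h12a, the gene of Regnase-1, with the same Cre. TKO cells carried all 3 floxed genes and WT cells carried the Cre alone. WT cells serve here as a reference for each difference, and TKO cells for orientation. Libraries of both also enter the estimate of the spread in the fit. All mice were C57BL/6J, and every genotype carried the Cre, a recombinase that is made in Cd4-expressing cells and is active only with tamoxifen. Splenic CD4 T cells were isolated, deletion was induced in them with 4-OH-tamoxifen, and they were activated in vitro through CD3 and CD28 under Th1 conditions and then kept in IL-2 medium. They were taken without restimulation (0 h) or after 1, 2 or 4 h of restimulation with antibodies to CD3 and CD28. The labels give neither ages nor the number of mice nor which exons are floxed.

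Roquin proteins bind short stem-loops in the 3′ untranslated regions (3′ UTRs) of mRNAs and recruit deadenylation and decapping enzymes. Regnase-1 is an endonuclease that cleaves mRNAs at stem-loops of the same kind. Their known targets in T cells overlap and include mRNAs of costimulatory receptors, cytokines and regulators of NF-kB, and Zc3h12a mRNA is itself a known target of both. T cell receptor signals inactivate these proteins by cleavage and induce many of their targets within the first hours. Setting one loss against the other asks which transcript levels differ between the losses at this early time. Since deletion came before activation and culture, direct and indirect effects of the losses cannot be told apart.

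The 8 libraries held 5369857 to 9698271 reads, and those of the whole study 5369857 to 11666403. Libraries of a group differed from each other by far more than sampling noise, and none looked deposited more than once. Nothing in the labels tells whether a group's 4 libraries were different mice or cultures. The p-values therefore reflect only how far libraries scatter within groups, and that scatter may be technical. The limma fit takes this scatter from all 64 libraries of the 16 groups, not from the 8 alone. Defining CD4 T cell markers were present in every library, with Cd4 at 1290 to 1781 normalized counts in DKO and 1153 to 1556 in KO cells, and Cd3e at 1122 to 1304 in DKO and 1276 to 1349 in KO cells. None of the 12 CD4 T cell markers was called with limma, 2 had an unadjusted p under 0.05, as did 1889 of all 16140 genes tested, and limma voom called none. Cd8a and Cd8b1, the CD8 T cell markers, summed to 42.2 to 59.5 in DKO libraries, and to 333.9 in KO library 3 and 33.2 to 74.2 in the other KO libraries. B cell markers summed to 1272 to 1705 in DKO and 1328 to 1991 in KO libraries, most of it from Ighm, the IgM heavy chain gene, which averaged 1338 ± 211 in DKO and 1604 ± 327 in KO cells and was not called. Those other than Ighm summed to 55.7 to 101.6 in DKO libraries, and to 168.3 in KO library 3 and 50.3 to 67.8 in the other KO libraries. Myeloid markers summed to 352 to 423 in DKO and 440 to 561 in KO libraries, which did not overlap, most of it from Ctss, while Lyz2 was at 0 in every DKO library. NK cell markers summed to 60.7 to 104.5 in DKO and 36.1 to 117.4 in KO libraries, dendritic cell markers to 57.6 to 124.6 in DKO and 80.8 to 148.2 in KO libraries, neutrophil markers to at most 6.56 in DKO and 6.29 in KO libraries, and erythroid and platelet markers to at most 28.7 in DKO and 18.1 in KO libraries. The part of these other cells in the differences was not tested, and counts without KO library 3 are given below. In such bulk samples, fewer cells of a type and less RNA per cell cannot be told apart.

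The targeted genes were checked first. Rc3h1 had 514, 572, 506 and 518 normalized counts in the 4 DKO libraries, against 875, 875, 704 and 745 in the 4 KO libraries. Every DKO library lay below every KO library, and WT cells averaged 791 ± 51.2 (SD, n = 4, as for all means below). Zc3h12a had 1368, 989, 1069 and 1084 normalized counts in DKO libraries, against 695, 446, 516 and 492 in KO libraries. Each DKO library was above each KO library, and WT libraries, at 781 to 1030, lay between them except that the lowest DKO value, 989, was under the highest WT value. Rc3h2 averaged 788 ± 45.8 in DKO and 767 ± 47.1 in KO cells, and its groups overlapped. For Rc3h1 and Zc3h12a the exact permutation p between DKO and KO cells was 0.0286, the smallest that 70 arrangements of 4 against 4 can give, and it became 0.0514 after adjustment over 9 tests. For Rc3h2 the exact p was 0.543. The values cover whole genes, so a level of Rc3h2 mRNA that was not lower in DKO cells does not check its deletion.

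At 1 h the genotypes differed in a small share of genes. Of 16140 genes tested, 129 were higher in DKO than in KO cells (0.799%) and 86 were lower (0.533%), 215 in all (1.33%), by limma with Benjamini-Hochberg adjustment over all genes, called at an adjusted p under 0.05. Differences are given as log2 of the normalized count plus 1, DKO minus KO, ± SE, a scale that understates changes of genes with few reads. The called genes were higher by at least 1 log2 unit in 53 cases and lower by as much in 37, and their medians were 0.89 and -0.94, against -0.01 over all genes tested. The libraries of the groups did not overlap in 118 of the 129 and 75 of the 86, against 4.06% and 2.99% of all genes tested in the same directions. In the authors' deposited table, 41 genes were higher and 44 lower in DKO cells at a false discovery rate under 0.05. Of those in the authors' deposited table, 36 and 36 were also called here, which is 87.8 and 81.8% of the authors' calls and 27.9 and 41.9% of the calls here. Without DKO library 2, 61 genes were called higher and 67 lower. Without KO library 3, the one with the most CD8 T cell markers and the most B cell markers other than Ighm, 77 were called higher and 55 lower, and with only the 2 groups in the fit 43 and 37. A core of 37 higher and 28 lower genes were called whichever of the 8 libraries was left out.

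**Figure D1:**
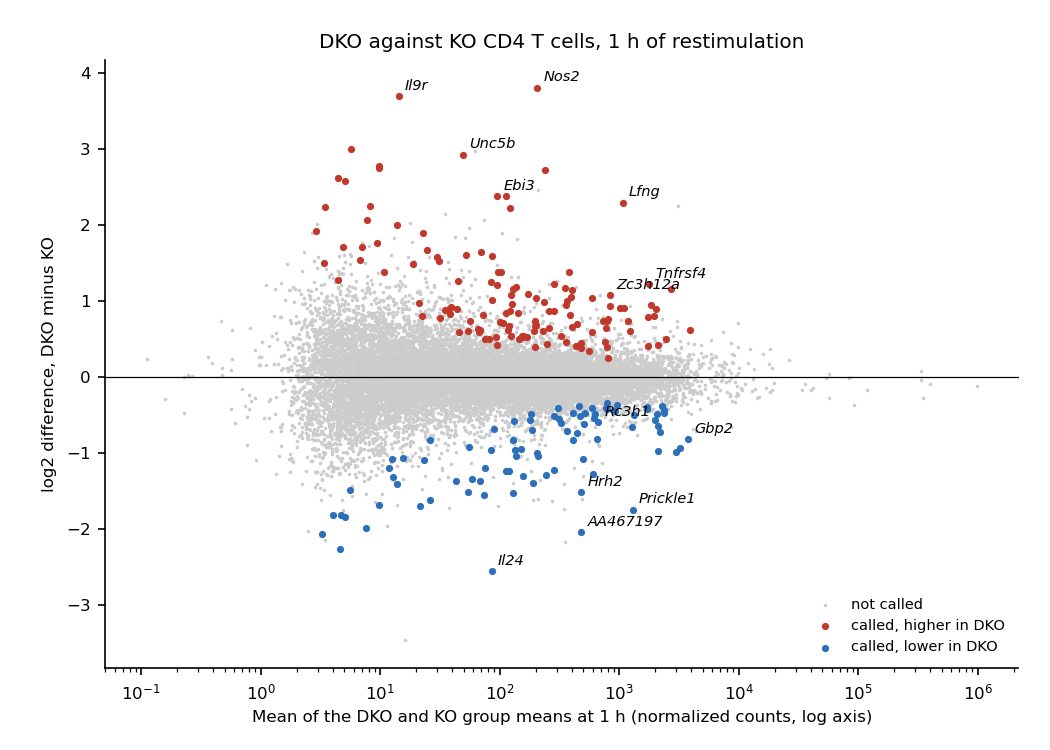
Each point is a gene, with the mean of the DKO and KO group means at 1 h in normalized counts on a log axis and the log2 difference, DKO minus KO, on the vertical axis. Red points are the 129 genes called higher in DKO cells and blue points the 86 called lower, with Nos2 (3.80) and Il24 (-2.55) at the far ends of the called genes.

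Stem-loops of the kind that both proteins bind were looked up in the 3′ UTR sequence of each gene, as a description of what the members share. The search took a loop of 3 bases of the order pyrimidine, purine, pyrimidine, closed by a stem of 5 Watson-Crick pairs, on the sense strand, in the longest annotated 3′ UTR of each protein-coding gene (GENCODE M21 on GRCm38). Such a hairpin was found in 51 of 121 genes called higher in DKO cells with a 3′ UTR (42.1%), in 21 of 78 called lower (26.9%) and in 3331 of 13579 genes tested (24.5%). The median 3′ UTR had 1112 bases among genes called higher, 1672 among those called lower and 1179 among all, and there were 0.318 hairpins per 1000 bases in genes called higher, 0.217 in those called lower and 0.192 in all. A match is a description and not a binding site. The sites below are shown because they belong to genes that the comparison turns on, each 21 bases long with the loop in capitals. Not every match in these genes is shown, since Zc3h12a and Icos each held 3 and Tnf and Nfkbiz each held 2. The first 4 genes are called higher in DKO cells, Prickle1 is called lower and the last 5 genes, which are known targets, are not called.
Tnfrsf4, chr4:156016538-156016558, plus strand: uauguaugcUAUgcauacuac
Zc3h12a, chr4:125119066-125119086, minus strand: guugauacaCAUuguaucucu
Zc3h12a, chr4:125118884-125118904, minus strand: guuaggcacCAUgugccugcu
Lfng, chr5:140615311-140615331, plus strand: gccuuccagUAUcuggaaucc
Socs1, chr16:10783880-10783900, minus strand: uuuuucugcUGUgcagaauau
Prickle1, chr15:93500035-93500055, minus strand: agcuaacacUGUguguuccau
Tnf, chr17:35199582-35199602, minus strand: cauguuuucUGUgaaaacgga
Nfkbid, chr7:30428399-30428419, plus strand: ggugauuucUGUgaaaucgag
Nfkbid, chr7:30428427-30428447, plus strand: gauuguuucUGUgaaacacuc
Nfkbiz, chr16:55812611-55812631, minus strand: aguuguuucUAUgaaacaaac
Ctla4, chr1:60915762-60915782, plus strand: aauauuuucCAUgaaaaugca
Icos, chr1:60999483-60999503, plus strand: caaaauuucUGUgaaauaaaa
The element shown for Tnf is the textbook constitutive decay element. Of the 62 genes picked by the naming rule, 25 held such a hairpin, among them 10 of the 25 called higher, 8 of the 25 called lower and 7 of the 12 not called. No match of this kind was in the 3′ UTRs searched for Nos2, Ebi3, Unc5b, Capn3, Il9r or Il24.

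Nos2, Ebi3, Il9r and Socs1 were higher in DKO than in KO cells. Nos2, which encodes inducible nitric oxide synthase, had 287, 927, 231 and 113 normalized counts in DKO libraries, against 18.9, 28.0, 12.02 and 23.8 in KO libraries. All DKO libraries were above all KO libraries, with DKO library 2 far above the others, and the difference was 3.80 ± 0.69 (limma adjusted p = 0.00055). Nos2 was not among the authors' calls, with a false discovery rate of 0.066 in their deposited comparison. Ebi3, which encodes the subunit shared by IL-27 and IL-35, had 159, 198, 148 and 134 in DKO libraries, against 30.2, 44.3, 18.5 and 31.1 in KO libraries. The groups lay far apart, by 2.38 ± 0.39 (limma adjusted p = 7.8e-05). Ebi3 overlaps Gm16712 on the opposite strand, which had 8.56% as many reads. Il9r, the IL-9 receptor gene, was low in both genotypes, with 19.2 to 37.2 normalized counts in DKO libraries and 0, 0, 3.70 and 3.11 in KO libraries (3.69 ± 0.52, limma adjusted p = 3.5e-06). Socs1, an inhibitor of JAK-STAT signalling, had 263, 131, 189 and 177 in DKO libraries, against 106, 74.1, 75.8 and 72.5 in KO libraries. Its groups did not overlap, and the difference was 1.18 ± 0.25 (limma adjusted p = 0.0047).

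Lfng, Unc5b, Capn3 and Arhgap24 were higher in DKO than in KO cells as well, each by more than 2 log2 units. Lfng, the lunatic fringe glycosyltransferase that modifies Notch receptors, had 1753, 1163, 1961 and 2232 normalized counts in DKO libraries, against 405, 326, 367 and 317 in KO libraries. The lowest DKO library was well above the highest KO library, a difference of 2.29 ± 0.20 (limma adjusted p = 3.4e-12). Unc5b, a netrin receptor gene, averaged 88.6 ± 44.5 in DKO and 10.3 ± 4.87 in KO cells (2.92 ± 0.30, limma adjusted p = 2.0e-09). Capn3, a calpain protease gene known from muscle, averaged 190 ± 52.2 in DKO and 35.4 ± 7.85 in KO cells (2.37 ± 0.27, limma adjusted p = 1.6e-08). Ganc, which overlaps Capn3 on the same strand, had 61.6% as many reads, so the authors' counting could have split reads between them. Arhgap24, which encodes a GTPase-activating protein of Rac, averaged 201 ± 52.2 in DKO and 42.4 ± 11.3 in KO cells (2.23 ± 0.32, limma adjusted p = 4.7e-06). Unc119, a lipid-binding trafficking chaperone gene, rose by 1.38 ± 0.21, Hrsp12, an enzyme gene of amino acid metabolism, by 1.26 ± 0.21, and Tm2d3 by 1.59 ± 0.20, with a limma adjusted p of at most 7.3e-05. Tm2d3 overlaps Tarsl2 on the same strand, which had 53.1% as many reads. Med23, a subunit of the Mediator complex, had 410 to 558 normalized counts in DKO and 226 to 260 in KO libraries (0.95 ± 0.10, limma adjusted p = 2.5e-09). Id2, an inhibitor of E-protein transcription factors, had 413 to 573 in DKO and 252 to 298 in KO libraries (0.81 ± 0.17, limma adjusted p = 0.0038). These 13 genes and Zc3h12a were called whichever of the 8 libraries was left out.

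Tnfrsf4, Slamf6 and 9 other genes were also called higher, but each call was lost when 1 of certain libraries was left out. Tnfrsf4, which encodes the costimulatory receptor OX40 and is a known Roquin target, had 2080, 3476, 2206 and 2236 normalized counts in DKO libraries, against 828, 1451, 896 and 1116 in KO libraries. Every DKO library was above every KO library, by 1.22 ± 0.30 on average (limma adjusted p = 0.020). The call was lost without DKO library 2 (adjusted p = 0.11), KO library 1 (0.081) or KO library 3 (0.078). Slamf6, a receptor gene of the Tfh program, had 1754 to 2882 in DKO and 750 to 1623 in KO libraries (0.94 ± 0.25, limma adjusted p = 0.043). It was lost without any of the libraries except DKO library 1 and KO library 4, with adjusted p up to 0.24 without KO library 1. Serpinb6b, a protease inhibitor gene (1.38 ± 0.32), was lost without DKO library 2 (adjusted p = 0.086) or KO library 1 (0.078). Bid, a BH3-only cell death gene (0.71 ± 0.17), was lost without DKO library 3 (0.10) or KO library 4 (0.077), and its opposite-strand neighbour Bcl2l13 had 382% as many reads. The remaining 7 were the adenosine receptor gene Adora2b (1.64 ± 0.44), the semaphorin receptor gene Plxnb2 (1.60 ± 0.42), the G protein regulator gene Rgs16 (1.38 ± 0.38), Fam213a (1.24 ± 0.33), Fchsd2 (0.59 ± 0.16), which overlaps Atg16l2 on the opposite strand, and, at few reads, the CD27 ligand gene Cd70 (1.75 ± 0.48) and the B cell receptor gene Cd79b (1.70 ± 0.44). All 7 lost their calls without DKO library 2 (adjusted p = 0.145 to 0.285) or KO library 4 (0.055 to 0.215). Of the 7, 6 lost them without DKO library 1 (0.0523 to 0.149) or KO library 1 (0.0667 to 0.196), 5 without KO library 3 (0.0564 to 0.126), 4 without KO library 2 (0.0569 to 0.107), 3 without DKO library 3 (0.0515 to 0.148) and Fchsd2 without DKO library 4 (0.0704). Cd70 was the gene among the 11 whose groups overlapped, and Cd79b belongs to the B cell marker list.

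Il24, AA467197 and Prickle1 had the largest falls among the lower genes picked by the naming rule whose higher group mean was at least 50 normalized counts. Il24, a cytokine gene of the IL-10 family, had 27.0, 28.4, 23.97 and 18.1 normalized counts in DKO libraries, against 128, 165, 161 and 132 in KO libraries. The groups lay far apart, with a difference of -2.55 ± 0.53 (limma adjusted p = 0.0038, and 0.15 with limma voom on recovered reads). Prickle1, a planar cell polarity gene, had 371, 521, 810 and 716 in DKO libraries, against 1316, 2038, 2162 and 2437 in KO libraries. All DKO libraries lay below all KO libraries, and the difference was -1.74 ± 0.23 (limma adjusted p = 8.4e-07). AA467197 had 221, 107, 212 and 215 in DKO libraries, against 864, 1029, 518 and 680 in KO libraries. The highest DKO library, at 221, lay far below the lowest KO library, at 518, and the difference was -2.04 ± 0.31 (limma adjusted p = 3.1e-05).

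Hrh2, Milr1 and 8 other genes were also lower in DKO cells. Hrh2, the histamine H2 receptor gene, had 223 to 271 normalized counts in DKO and 554 to 938 in KO libraries (-1.52 ± 0.20, limma adjusted p = 8.4e-07). Milr1, an inhibitory immunoglobulin-like receptor gene known from mast cells, had 59.7 to 79.3 in DKO and 141 to 185 in KO libraries (-1.24 ± 0.23, limma adjusted p = 0.00054). Its opposite-strand neighbour Polg2 had 35.3% as many reads. Dock4, an activator of Rac (-1.31 ± 0.21), and Map6, which encodes a microtubule stabiliser (-1.40 ± 0.24), were lower in DKO cells. So were Enah, an actin regulator (-1.23 ± 0.23), and the actin-binding protein gene Enc1 (-1.23 ± 0.24). Each had all 4 DKO libraries below any KO library, as the naming rule required. Slc30a4, a zinc transporter gene (-1.28 ± 0.16), Lgals3, the galectin-3 gene (-1.29 ± 0.27), and Drc1, a gene of the ciliary dynein regulator (-1.53 ± 0.29), behaved likewise. Among these 7 genes the highest limma adjusted p was 0.0036. Rgmb, a coreceptor of bone morphogenetic proteins, was lower too (-1.55 ± 0.34) and lost its call without DKO library 2 (adjusted p = 0.084). With only DKO and KO libraries in the fit, Enah (0.06) and Rgmb (0.069) were not called.

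Some interferon-inducible membrane and GTPase genes were lower in DKO cells. Of the 4 IFITM genes tested, whose proteins restrict virus entry, Ifitm1 and Ifitm3 were called lower, against 0.533% of all genes, and the list median was -1.32. Ifitm3 had 30.4, 30.6, 37.3 and 52.3 normalized counts in DKO libraries, against 74.2, 88.5, 117 and 113 in KO libraries. Its groups did not overlap (-1.37 ± 0.30, limma adjusted p = 0.0080, and 0.065 with limma voom). Ifitm1 had 7.65 to 16.9 in DKO and 30.1 to 47.8 in KO libraries (-1.62 ± 0.36, limma adjusted p = 0.0087) and was lost without DKO library 2 (0.065). Of the 10 guanylate-binding protein (GBP) genes, large GTPases of defence against intracellular microbes, 3 were called lower (against the same 0.533% of all genes), 0 higher and 9 lay below 0, with a median of -0.50. Gbp2 had 3158, 2359, 2496 and 2870 in DKO libraries, against 6068, 3949, 4510 and 4772 in KO libraries. Its groups did not overlap (-0.82 ± 0.19, limma adjusted p = 0.0098), and the call was lost without DKO library 2 (0.057) or KO library 1 (0.068). Gbp4 (-0.65 ± 0.16) and Gbp9 (-0.66 ± 0.17) overlap each other and Gbp8 on the same strand, and each was lost without any of 5 libraries, with adjusted p up to 0.13 and 0.14 without KO library 1. Of 23 interferon-stimulated genes tested, Usp18, which encodes the ISG15 protease, was called lower (-1.51 ± 0.42, limma adjusted p = 0.048) and lost its call without DKO library 2 (0.42), KO library 1 (0.14), KO library 3 (0.13) or KO library 4 (0.098). That is 1 of 23, against 0.533% of all genes, and the median of that list was -0.27.

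**Figure D2:**
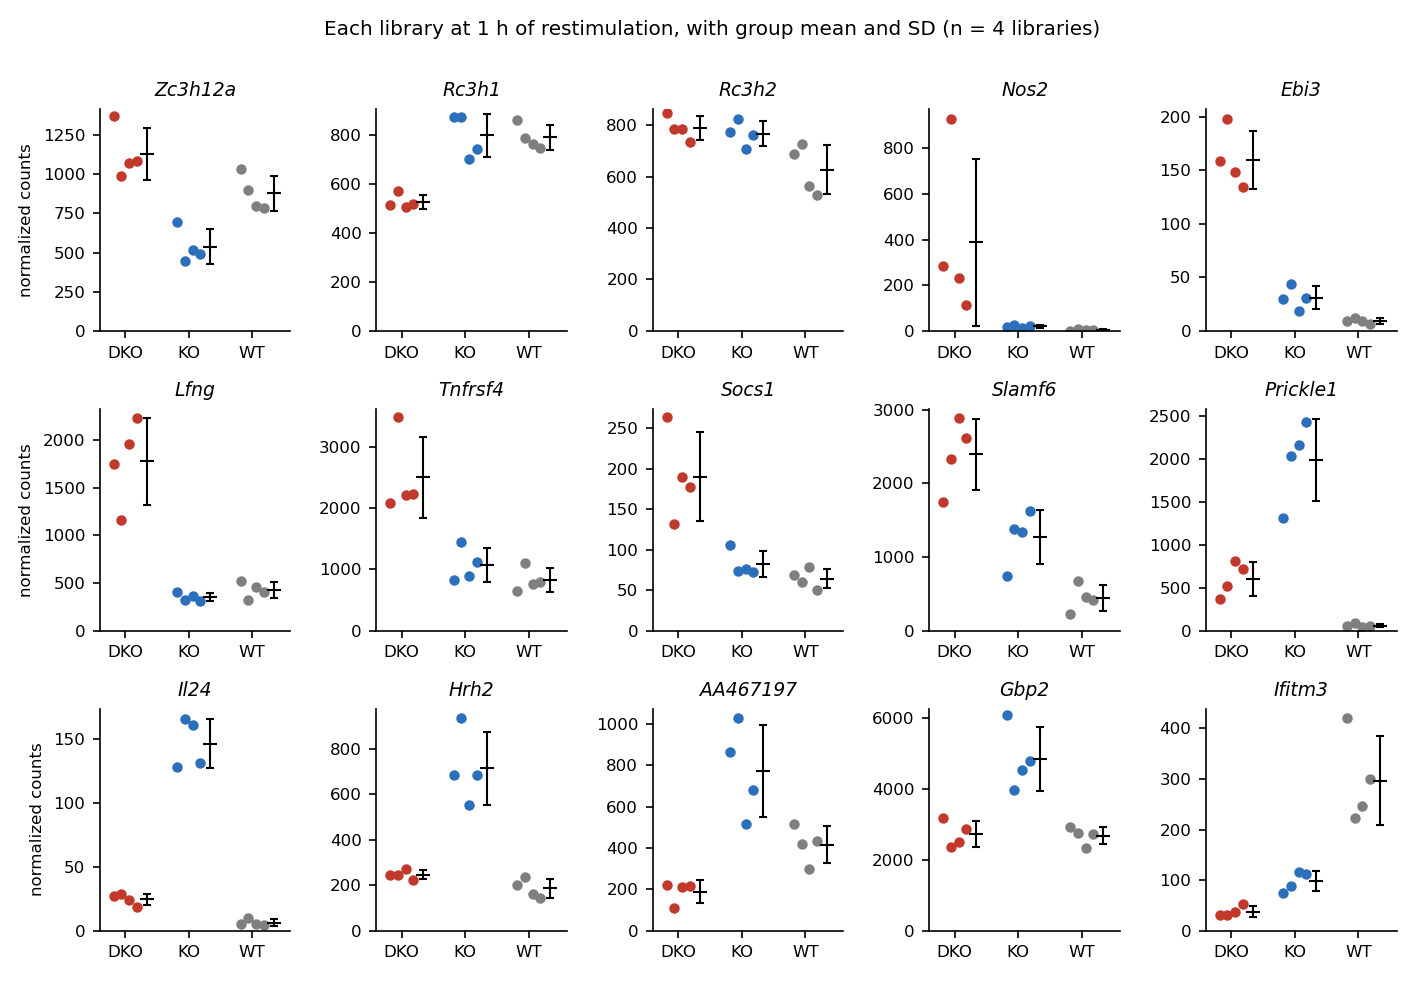
Each point is a library at 1 h in normalized counts on a linear axis from 0, for DKO, KO and WT cells, with the group mean and SD beside the points (n = 4 libraries). DKO and KO libraries do not overlap in any panel except that of Rc3h2, where the means are 788 and 767. For Nos2, Ebi3, Lfng, Tnfrsf4, Prickle1, Il24, Hrh2, AA467197 and Ifitm3 the naming rule required groups without overlap.

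Known targets of both proteins were counted next. Of 20 such genes tested, Tnfrsf4 and Zc3h12a were called higher, against 0.799% of all genes, 0 were called lower, and the list median was 0.17. Zc3h12a is also the gene targeted in KO cells, so a loss there and a rise in DKO cells cannot be told apart in this call. At 0 h it averaged 276 ± 21.4 normalized counts in DKO, 103 ± 25.2 in KO and 79.8 ± 8.78 in WT cells. Icos, a costimulatory receptor gene and a well known Roquin target, averaged 3679 ± 688 normalized counts in DKO and 3394 ± 669 in KO cells, and the groups overlapped (0.12 ± 0.40, limma adjusted p = 0.96). Ctla4, an inhibitory receptor gene, had 1673, 2736, 1143 and 1053 in DKO libraries, against 685, 969, 654 and 952 in KO libraries. Its groups did not overlap, but the difference of 0.93 ± 0.42 was not called (limma adjusted p = 0.35). The atypical IkB gene Nfkbid (0.15 ± 0.28), the T cell factor gene Irf4 (0.18 ± 0.21) and the cytokine genes Il2 (0.47 ± 0.51), Tnf (-0.05 ± 0.34) and Ifng (-0.66 ± 0.57) were not called, with limma adjusted p from 0.77 to 0.98. Nfkbiz, another atypical IkB gene, had 2603 to 4414 in DKO and 4373 to 6832 in KO libraries, which overlapped slightly (-0.71 ± 0.21, limma adjusted p = 0.078). A p that misses the threshold does not show that these genes responded alike, and the SE of 0.40 for Icos leaves room for differences of either sign.

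No immediate early gene, the class induced first by restimulation, and no NF-kB pathway gene was called. Of 26 immediate early genes and 25 genes of the NF-kB pathway, limma called 0, with 1 and 2 at an unadjusted p under 0.05 and 0 called by limma voom, and the list medians were -0.02 and 0.05. Over all 16140 genes tested, 1889 were at an unadjusted p under 0.05, the background for such counts here. Across 40 gene lists 497 genes were tested, of which 10 were called higher and 13 lower (4.63%, against 1.33% of all genes). The lists were chosen with earlier results of these data known, and the called members include the targeted genes Rc3h1 and Zc3h12a. These shares and those of single lists are therefore a description and not a test of enrichment. In 21 of the lists limma called 0, with 37 of their 256 members tested at an unadjusted p under 0.05 and 1 called by voom. Of 24 cytokine genes Ebi3 was higher and Il24 lower, of 26 cytokine receptor genes Il9r was higher, and of 13 costimulatory receptor genes Tnfrsf4 was higher. Of 11 Tfh genes Slamf6 was higher, with a list median of 0.34, and of 15 Th1 genes none was called (median 0.04, 2 at an unadjusted p under 0.05, 0 by voom). Of 30 ribosomal protein genes 2 were called lower, Rpl8 (-0.47 ± 0.10) among them, with a median of -0.27 and 1 gene above 0. Rpl8 was not called with only DKO and KO libraries in the fit (0.056). Hsp90b1, an endoplasmic reticulum chaperone gene, was lower (-0.38 ± 0.10) and lost its call without DKO library 1 (0.12), KO library 1 (0.070) or KO library 3 (0.088). Of 18 cholesterol synthesis genes all lay below 0 (median -0.42) and limma called 0, with 9 at an unadjusted p under 0.05 and 0 by voom. Of 28 cell cycle genes 27 lay below 0 (median -0.19) and 0 were called, with 3 at an unadjusted p under 0.05 and 0 by voom. Gzma, a granzyme gene at few reads, averaged 1.69 ± 1.34 in DKO and 7.69 ± 2.64 in KO cells (-1.82 ± 0.48), and its call was lost without any library except DKO library 2 and KO library 1, with adjusted p up to 0.18 without DKO library 4. The signs of these list medians were the same under all 5 scalings tried, except for the immediate early list (-0.02 to 0.01) and the cytokine receptor list (-0.004 to 0.028).

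**Figure D3:**
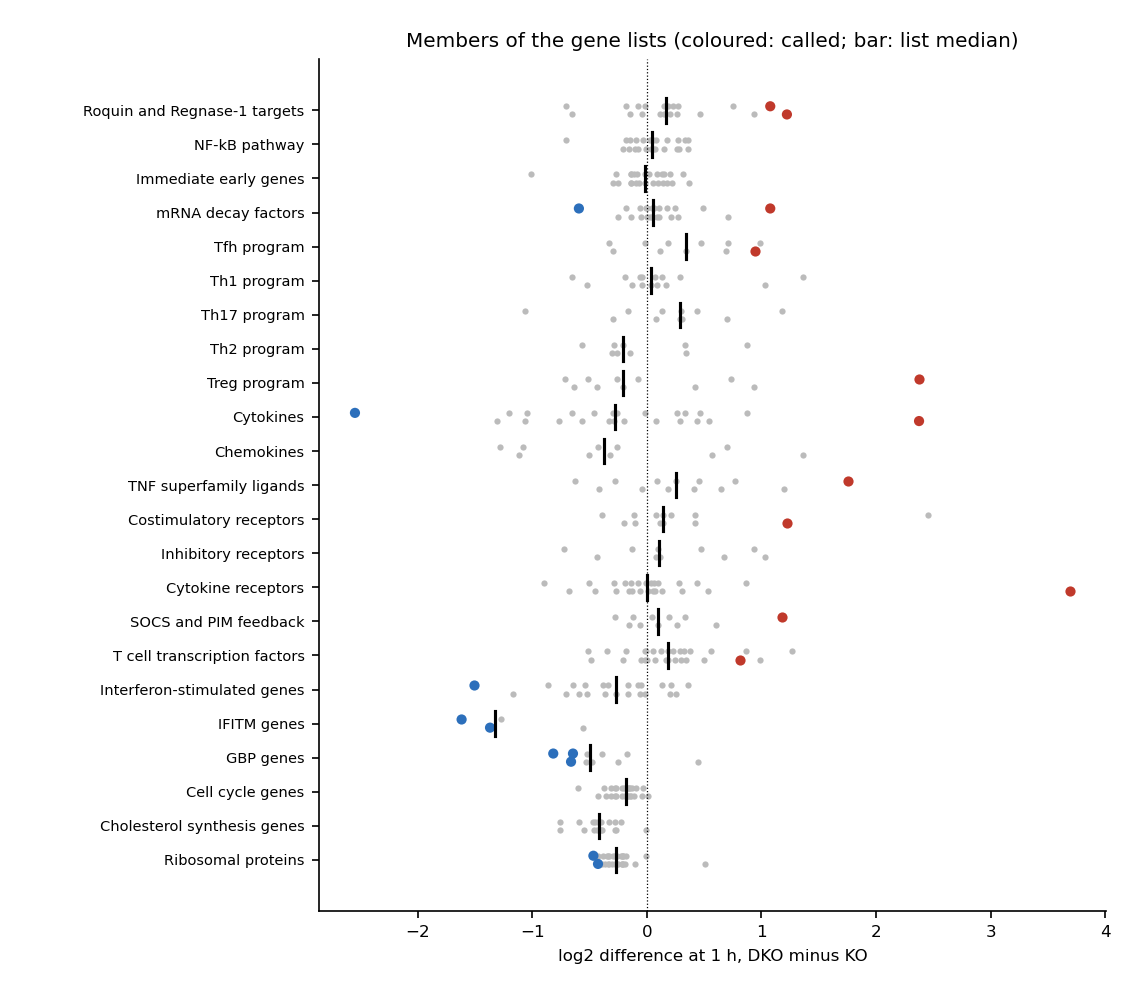
Each point is a tested member of a gene list, placed by its log2 difference at 1 h, DKO minus KO, with called genes in red (higher in DKO) or blue (lower) and the list median as a bar. The medians of the IFITM (-1.32), GBP (-0.50) and cholesterol synthesis (-0.42) lists lie furthest below 0 among the lists drawn.

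WT cells show on which side each difference lay. DKO cells differed from WT cells in 1330 genes at 1 h (8.24%) and KO cells in 350 (2.17%). These became 835 genes without DKO library 2 for DKO cells, and 231 without KO library 2 and 215 without KO library 4 for KO cells. The 2 comparisons share the 4 WT libraries and the genes were chosen for their difference between DKO and KO cells, so the values are set side by side as a description. Of the 25 higher genes picked by the naming rule, 24 were called above WT in DKO cells (background 5.95%), and 2 were called above and 1 below WT in KO cells (1.84% and 0.328%). Lfng, for example, was 2.03 ± 0.20 above WT in DKO cells and -0.26 ± 0.20 from WT in KO cells, and Socs1 was 1.52 ± 0.25 above WT in DKO cells and 0.35 ± 0.25 in KO cells. Ebi3 was above WT in both, by 3.98 ± 0.39 in DKO and 1.60 ± 0.39 in KO cells, and so was Slamf6, by 2.50 ± 0.25 in DKO and 1.55 ± 0.25 in KO cells. Zc3h12a differed from WT by 0.36 ± 0.19 in DKO cells, which was not called (limma adjusted p = 0.24), and by -0.72 ± 0.19 in KO cells, where the gene is targeted.

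The genes lower in DKO cells fell into different patterns against WT. Of the 25 picked by the naming rule, 12 were called below WT and 2 above WT in DKO cells (background 2.29% and 5.95%), and 7 were called above WT and 1 below WT in KO cells. Prickle1 and Il24 were above WT in both genotypes and more so in KO cells. Prickle1 was higher by 3.27 ± 0.23 in DKO and 5.01 ± 0.23 in KO cells, and Il24 by 1.86 ± 0.53 in DKO and 4.41 ± 0.53 in KO cells. Hrh2 and Milr1 were close to WT in DKO cells (0.43 ± 0.20 and 0.45 ± 0.23, not called) and above it in KO cells (1.94 ± 0.20 and 1.69 ± 0.23). Gbp2 differed by 0.02 ± 0.19 in DKO and 0.84 ± 0.19 in KO cells. Dock4 (-1.79 ± 0.21), Map6 (-1.31 ± 0.24), Drc1 (-1.42 ± 0.29) and Lgals3 (-0.94 ± 0.27) were below WT in DKO cells and not called in KO cells, where they stood at -0.48, 0.09, 0.11 and 0.35. Ifitm3 was below WT in both, at -2.94 ± 0.30 in DKO and -1.57 ± 0.30 in KO cells. Icos was above WT by 2.38 ± 0.40 in DKO and 2.26 ± 0.40 in KO cells.

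The TKO cells, with all 3 genes targeted, are given for orientation. In TKO cells Prickle1 averaged 4519 ± 450 normalized counts, against 605 ± 197 in DKO, 1988 ± 479 in KO and 61.0 ± 18.5 in WT cells. Icos averaged 8426 ± 1811 in TKO cells and 714 ± 181 in WT cells. Lfng averaged 1457 ± 151 in TKO cells, near its DKO level of 1777 ± 454 and far from its KO level of 354 ± 40.4. Ifitm3 averaged 59.9 ± 17.9 in TKO cells, between its DKO level of 37.6 ± 10.3 and its KO level of 98.1 ± 20.2, and WT cells held 297 ± 88.3. No test was made between TKO cells and the others.

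**Figure D4:**
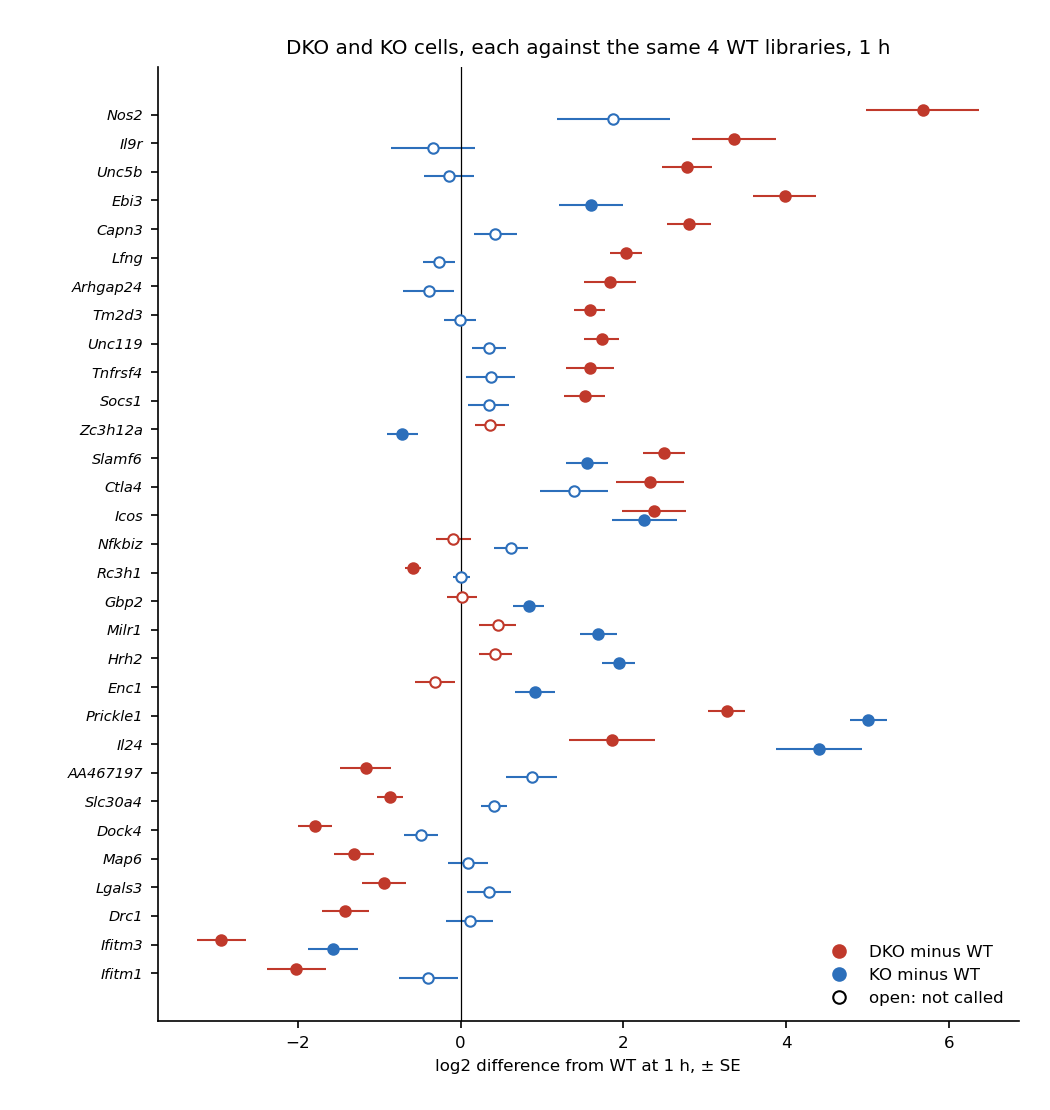
Differences from WT at 1 h on the log2 scale, ± SE, for DKO cells (red, upper point of each row) and KO cells (blue, lower point), with open circles for values that were not called. Lfng, Unc5b and Arhgap24 lie to the right in DKO cells alone, while Prickle1 and Il24 lie further right in KO than in DKO cells.

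The same contrast was also made at 0, 2 and 4 h, between libraries other than those compared at 1 h. All times shared the estimate of the spread in the fit. The labels do not tell whether the times came from the same mice or cultures, so genes shared between times are not independent replication. At 0 h 193 genes were called between DKO and KO cells (1.2%), and 454 were called at 2 h (2.81%). The count at 4 h was 495 (3.07%). Of the 129 genes higher at 1 h, 59 were also called higher at 0 h, which is 45.7% of the 1 h list and 43.4% of the 0 h list. The shared genes numbered 58 at 2 h, 44.96% of the 1 h list and 24.5% of the 2 h list, and 15 at 4 h, 11.6% of the 1 h list and 20% of the 4 h list, against 0.843% of all genes called higher at 0 h, 1.47% at 2 h and 0.465% at 4 h. Of the 86 lower at 1 h, 29 were also called lower at 0 h, which is 33.7% of the 1 h list and 50.9% of the 0 h list. Lower in common were 59 genes at 2 h, 68.6% of the 1 h list and 27.2% of the 2 h list, and 49 at 4 h, 57.0% of the 1 h list and 11.7% of the 4 h list, against 0.353% of all genes called lower at 0 h, 1.34% at 2 h and 2.6% at 4 h. The difference kept its sign in 127 of the 129 and 84 of the 86 at 0 h, in 126 and 85 at 2 h, and in 105 and 80 at 4 h, where 2 of the 129 were called in the opposite direction. The median difference of the 129 was 0.70 at 0 h, 0.61 at 2 h and 0.29 at 4 h, and that of the 86 was -0.54 at 0 h, -0.70 at 2 h and -0.62 at 4 h. Called higher at all 4 times were 10 genes, among them Nos2, Ebi3, Lfng, Unc5b, Capn3, Hrsp12 and Zc3h12a. Nos2 passed narrowly at 0 h (limma adjusted p = 0.044) and 4 h (0.049). Lower at all 4 times were 20 genes, among them Prickle1, AA467197, Slc30a4, Map6, Enah, Gbp2, Ifitm1, Hsp90b1, Rpl8 and Rc3h1. The count of genes lower at 4 h depended on the scaling, with 420 lower and 75 higher as analysed and 94 lower and 130 higher with the deposited scaling.

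The difference between the genotypes at 1 h was set against that at each other time in one model. Against 0 h limma called 0 genes, with 241 at an unadjusted p under 0.05 and 0 by voom. Against 2 h it called 0, with 412 at an unadjusted p under 0.05 and 0 by voom. Called at 1 h and at no other time were 44 genes higher and 19 lower, Socs1 and Plxnb2 among them, and a change of the difference from 0 h or 2 h was called for none of these. Against 4 h, 12 genes were called (0.0743%), 10 with a higher (0.062%) and 2 with a lower difference at 1 h (0.0124%). With only the 4 groups in the fit 0 were called, and with the deposited scaling 2.

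The genes whose difference changed between 1 and 4 h did so in several ways. Lfng averaged 406 ± 87.8 in DKO and 201 ± 38.1 in KO cells at 4 h, a smaller difference than at 1 h (change 1.29 ± 0.28, limma adjusted p = 0.040). Id2 averaged 127 ± 56.5 in DKO and 162 ± 28.8 in KO cells at 4 h and was not called there (change 1.23 ± 0.24, limma adjusted p = 0.012). Med23 averaged 483 ± 60.9 in DKO and 446 ± 25.0 in KO cells at 4 h, close to each other (change 0.84 ± 0.14, limma adjusted p = 0.0037). Tnfrsf25, which encodes death receptor 3, averaged 104 ± 32.1 in DKO and 111 ± 30.3 in KO cells at 1 h, and 87.8 ± 15.7 in DKO and 251 ± 18.9 in KO cells at 4 h (change 1.41 ± 0.28, limma adjusted p = 0.013). Rc3h1 averaged 518 ± 20.02 in DKO and 1332 ± 180 in KO cells at 4 h, a wider gap than at 1 h (change 0.76 ± 0.14, limma adjusted p = 0.0086). Fchsd2 (1.03 ± 0.23) and Armcx4 (1.09 ± 0.24) also had a higher difference at 1 h. Amica1, an adhesion molecule gene, had a lower one (-1.21 ± 0.26), and it averaged 497 ± 91.2 in DKO and 283 ± 29.9 in KO cells at 4 h. The highest limma adjusted p of these 3 was 0.046. Over leaving out each library the count of genes called was 7 to 11.

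**Figure D5:**
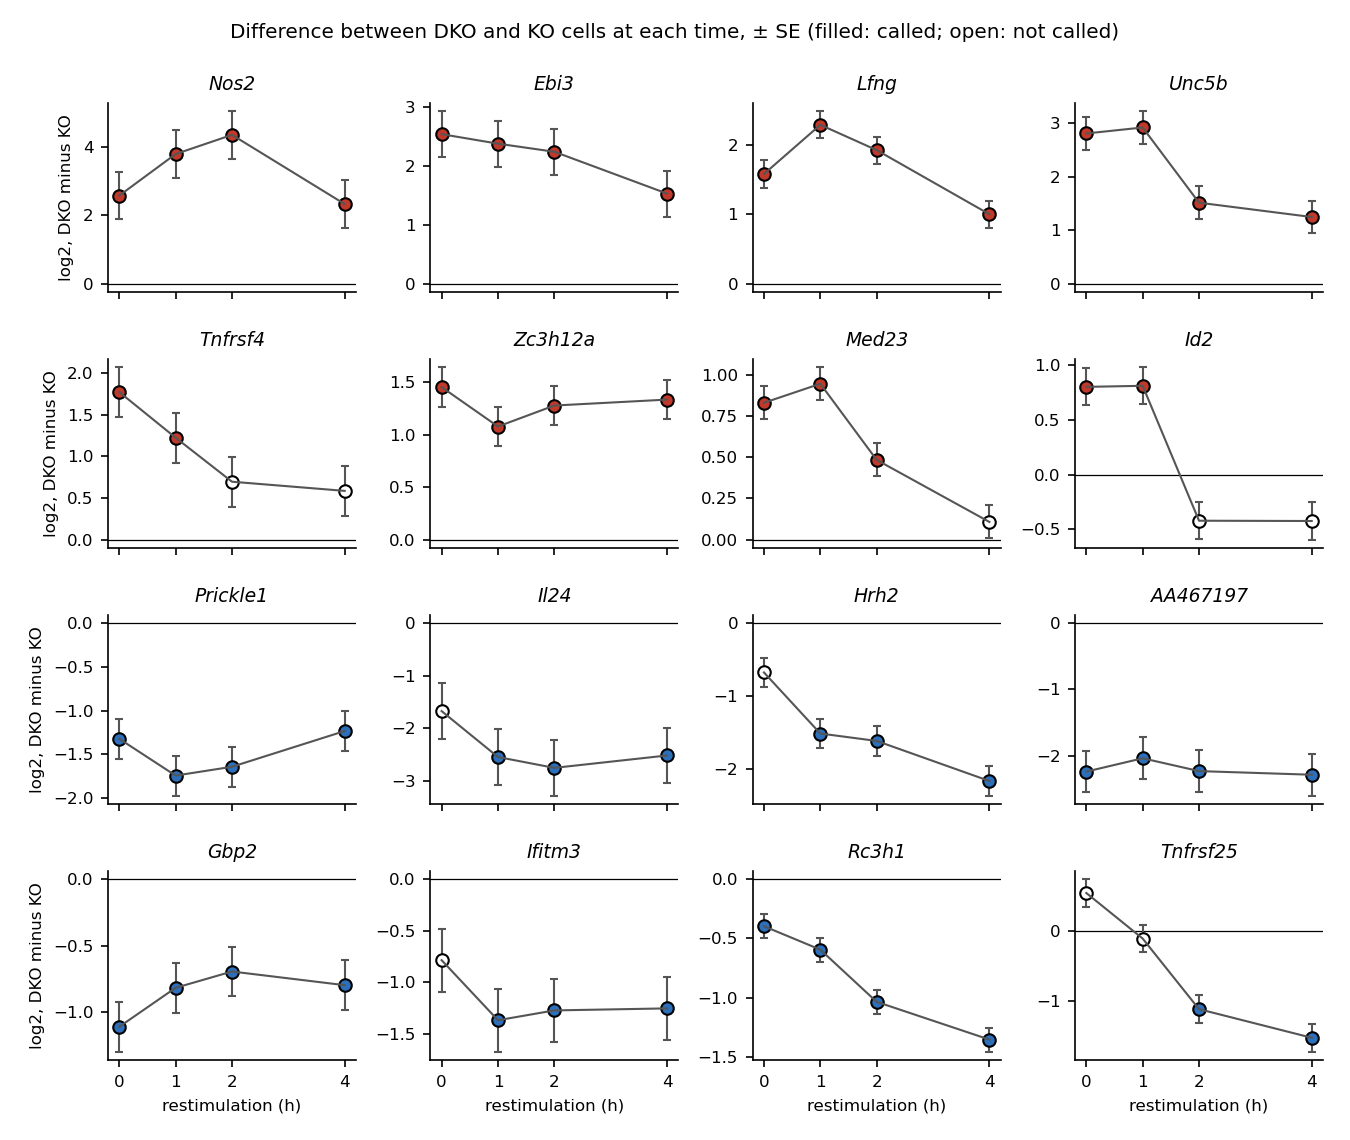
The log2 difference, DKO minus KO, ± SE, at 0, 1, 2 and 4 h of restimulation for 16 genes, each panel with its own vertical axis, with filled circles for called and open circles for not called. Zc3h12a (1.08 to 1.45) and AA467197 (-2.29 to -2.04) keep a similar difference over the 4 times, Id2 and Med23 are higher at 0 and 1 h than at 4 h, and the differences of Tnfrsf25 and Rc3h1 are lower at each later time.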

How the data were processed

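Total RNA from 64 libraries of CD4 T cells (4 genotypes at 4 times, 4 libraries in each of 16 groups) was sequenced after preparation with a NuGEN kit, per the labels' protocols. The genome build was GRCm38, per the submitters' processing notes, and the aligner, counter and annotation were not given in the sources used here. The authors deposited normalized read counts as lists of 4 values per gene and group, without replicate numbers. The deposited table also holds the authors' group means, a signal used to check the lists, their log2 fold changes, and their p-values in the form of a false discovery rate, taken as the worst over methods not stated.

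Low values were whole multiples of 1 read within 0.1 read in 100% of cases, which gave each library's reads. Libraries were rescaled by TMM factors to the median depth of 7720346 reads. Of 23134 genes, the 16140 with at least 10 reads at the median depth in at least 4 libraries and a sum of at least 15 were tested. limma 3.58.1 in R 4.3.3 (trended, robust empirical Bayes, 2-sided) was run on log2(normalized count + 1) with 1 mean per group over all 64 libraries and 48 residual degrees of freedom, and Benjamini-Hochberg adjustment over all genes. The planned count models were not run, and limma voom on the recovered reads took their place. Targeted genes were tested by exact 2-sided permutation. The method was checked on simulated counts with independent libraries and the same dispersion for every gene. That is simpler than the real data, so the check gives no support to the calls made here.

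The lists carry no replicate numbers, so that their places are not known to pair libraries, and the model reported here has no block. Deviations from the group mean, correlated over genes, went together at all 4 places in the 1 h lists (0.219 to 0.484 between DKO and KO libraries, -0.337 to 0.251 between different places), but not at 0 h (-0.295 to -0.111), 2 h (-0.079 to 0.455) or 4 h (-0.175 to 0.090). A fit with these places as a block at 1 h was therefore added after seeing the data.

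The members and gene lists were chosen with earlier results of these data known. Named were the 3 targeted genes, the 15 largest rises and 15 largest falls among called genes whose groups did not overlap and whose higher mean was at least 50, up to 4 called genes per list and direction, 12 genes of prior interest, and up to 6 genes per direction whose difference changed between times. Predicted loci were counted but not named, and a few genes are not reported here. The alternatives covered scaling, pseudocount, filter, the groups fitted, voom, leaving out each library and, after seeing the data, a covariate, the place block and leaving out the first library of both groups.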

Additional observations from a re-analysis of the deposited data

Results flagged for a closer look

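In 8 of 120 groups of 4 libraries looked at, 1 library lay far from the others by Dixon's criterion, where chance alone flags about 1 in 20 groups (6 of 120). In DKO cells the highest library stood apart for Tnfrsf4 (3476 normalized counts, the others 2080 to 2236), Plxnb2 (156, the others 49.7 to 65.8), Fam213a (191, the others 86.4 to 102.9) and Cd79b (21.9, the others 7.47 to 8.43), each of them DKO library 2. The highest DKO library also stood apart for Gbp9 (1172, the others 911 to 953). The lowest DKO library stood apart for AA467197 (107, the others 212 to 221). In KO cells the highest library, KO library 1, stood apart for Unc5b (17.6, the others 7.25 to 8.32) and Socs1 (106, the others 72.5 to 75.8).

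The difference between DKO and KO cells at 1 h departed from that at 4 h, by limma with a test of the difference itself, in 8 of the named genes. The difference at 1 h less that at 4 h was 1.29 for Lfng (limma adjusted p = 0.0403), 0.84 for Med23 (0.00368), 1.23 for Id2 (0.0121) and 1.03 for Fchsd2 (0.0461). It was 1.09 for Armcx4 (limma adjusted p = 0.0461), 1.41 for Tnfrsf25 (0.0126), 0.76 for Rc3h1 (0.00863) and -1.21 for Amica1 (0.0403). Without the other groups in the fit none of them was called.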

How the results depend on the processing

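The 129 genes called higher and 86 called lower became 43 and 37 with only the groups compared, 196 higher with a filter of 50 reads and 54 lower with no filter. With 2 settings chosen after seeing the data they became 44 and 42 without the first library of both groups, and 196 and 157 with the share of the 10 most abundant loci as a covariate. Leaving out 1 library gave 61 to 118 higher and 55 to 77 lower, and 15 to 21 list members against 23, which were 13 with only the groups compared and 12 without the first library of both groups. Only the groups compared gave 89 genes at 0 h, 101 at 2 h, 273 at 4 h, 719 for DKO against WT and 216 for KO against WT, and the covariate gave 789 at 4 h, 2079 and 704 against WT. At 4 h 224 genes were called with the deposited scaling, 292 with median-ratio, 212 with upper-quartile, 250 with the total without the 10 most abundant loci and 231 with the filter of 50 reads. Leaving out 1 library gave 835 to 1528 genes for DKO against WT and 215 to 351 for KO against WT. For the change between 1 and 2 h, 1 gene was called with median-ratio, upper-quartile or total scaling and with the filter of 50 reads, and 0 to 1 without 1 library. For the change between 1 and 4 h, against 12 genes, the counts were 2 with the deposited scaling, 4 with upper-quartile, 7 with the total, 0 with only the groups compared, 30 with the covariate and 7 to 11 without 1 library. The causes were not tested.

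Of the 50 named genes called, 26 were called under every of 21 alternatives. Reversed signs arose in genes that were not called: with the covariate Icos (-0.065), Rc3h2 (-0.007) and Tnf (0.0794), and in Tnf without the first library of both groups (0.0153). Leaving out 1 library gave -0.1853 to 0.1006 for Tnf, above 0 without DKO library 2 or KO library 1, and -0.2577 to 0.0887 for Tnfrsf25, above 0 without DKO library 2 or KO library 4. With the place of the 1 h libraries in the lists as a replicate block, also chosen after seeing the data, 146 genes were called higher and 99 lower, 127 and 85 of them also without the block. The block changed the call of no named gene and no list member. The planned edgeR and DESeq2 fits were not run. With 4 libraries a group and 5369857 reads in the shallowest, genes of few reads such as Cd70, Cd79b and Gzma are the least certain.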

Other observations

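Genes near the targeted loci were counted. Within 10 Mb of Rc3h1 on chromosome 1, 6 of 128 genes tested were called (4.69%, against 1.33% of all genes), with Mpzl1, Serpinc1, Tada1, Glul and Rgs16 among them, 3 higher and 3 lower in DKO cells. Within the same distance of Rc3h2, 2 of 170 were called (1.18%), and of Zc3h12a, 2 of 256 (0.781%). These genes were looked up after their values were seen, and no test was made.

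Cog2, a subunit of a Golgi tethering complex, and Notch2, a Notch receptor gene, were chosen after their values were seen, as the genes called in opposite directions at 1 and 4 h. Cog2 differed by 0.46 ± 0.11 at 1 h and -0.36 ± 0.11 at 4 h, and Notch2 by 0.41 ± 0.11 at 1 h and -0.43 ± 0.11 at 4 h. With the deposited scaling the limma adjusted p at 4 h was 0.42 for Cog2 and 0.26 for Notch2.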
